A study of Drosophila melanogaster with 14 samples.

Results

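The meiotic arrest genes of Drosophila melanogaster switch on the transcription programme of spermatocytes, the male germ cells that go through meiosis. In flies that lack any of them, spermatocytes stop before the meiotic divisions and many genes needed for making sperm stay silent. Their products fall into 2 assemblies. The testis-specific meiotic arrest complex (tMAC) is built around relatives of the widely expressed MuvB and dREAM repressor proteins. The testis TAFs (tTAFs) are testis versions of subunits of the general transcription factor TFIID. These genes are known to act after the stem cell stage, in primary spermatocytes. Germline stem cells are thus a stage at which the genes are not yet in use. Cyst stem cells belong to the somatic cyst lineage and not to the germline. Replication timing, the moment in S phase at which a stretch of DNA is copied, tends in general to be early for active chromatin and late for silent chromatin.

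The 9 genes aly, comr, topi and tomb of tMAC and can, sa, mia, nht and rye of the tTAFs were taken by name, out of 13968 protein-coding genes with values. The rule used names and no threshold on a measured value. Each gene was described by the 10 kb bin that holds its annotated start and by the 3 kb windows over its body, in Release 6 of the genome (dm6). All 9 genes passed the filter on low signal. Their start bins are 9 different bins on 2L, 2R, 3L and 3R, so no bin is counted more than once, and none lies on the X.

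Repli-seq was carried out on testis tumours grown by overexpressing Unpaired (Upd), the ligand of the JAK-STAT pathway that keeps stem cells in the niche. GSC-like nuclei, called after germline stem cells, came from flies that were y[1] w[1118] with P{hs70FLP} on the first chromosome and P{w[+mC]=GAL4::VP16-nanos.UTR} over UAS - Upd on the second. CySC-like nuclei, called after somatic cyst stem cells, came from w[1118] flies with traffic Jam - GAL4 over UAS - Upd. Both kinds of fly also carried UAS-FRT-H3-GFP-FRT-H3-mKO, a tagged histone, over a wild-type chromosome, so both tumours share Upd overexpression and the tagged histone, and no normal testis was included. The nanos driver acts in the germline and the traffic jam driver in the cyst lineage. Crosses were kept at 25 °C, and the age of the adults was not given. For each preparation 100 to 200 pairs of testes were pooled and given 100 mM BrdU, a label of new DNA, for 15 minutes. Nuclei with GFP were sorted by DNA content into 4 fractions of S phase, and BrdU-labelled DNA was sequenced. The fractions are E for early, EM for early-mid, ML for late-mid and L for late. The 4 biological replicates, 2 for each kind of nuclei, gave 14 libraries: all fractions of each, except that only E and L of CySC-like replicate 1 were analysed here. The labels mark the libraries of GSC-like replicate 2 as paired-end and those of GSC-like replicate 1 as single-end. DNA libraries carry no expression values, so the named cell types could not be checked against expressed markers.

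Read totals were not given with the values and were worked out from their smallest step, taken as a single read in RPKM. Libraries held 49.1 to 144 M reads, except those of GSC-like replicate 2, which held 0.516 to 7.05 M. In that replicate the start bins of the 9 genes rest on 70.7 to 836 reads in E, 58 to 157 in EM, 12.3 to 53.3 in ML and 52.7 to 102 in L, and in every other library on at least 1506. Counting error alone gives a log2(E/L) of these bins an error of 0.18 to 0.23 in GSC-like replicate 2 and of 0.022 to 0.040 in the others. It covers only the number of reads, not the sort or the pull-down. GSC-like replicate 2 also spread most over the genome, with a standard deviation of log2(E/L) over all bins of 1.32, beside 0.737 for the other GSC-like replicate, and 1.08 and 0.725 for the CySC-like replicates. Its L library was the one with the most signal in its 100 highest windows, at 15.8%. Replicates of a cell type correlated with r = 0.692 for GSC-like and 0.73 for CySC-like over bins, and replicates of different cell types with 0.423 to 0.713. A library averages over many nuclei, so a bin copied midway in all of them and a bin copied early in some and late in others cannot be told apart.

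Timing is given as log2(E/L), the signal of a bin in E over that in L, set to 0 at the median of 13746 bins in each replicate. Positive values are earlier and negative values later than the median bin. Where a cell type has a pair of values, they are those of replicates 1 and 2 in that order. On this scale the 9 genes fell into a set of 3 late genes and a set of 6 with means above 0 in GSC-like. In GSC-like replicates 1 and 2, 5 and 6 of the 9 were above 0, beside 66.85% and 74.37% of all coding starts. In CySC-like replicates 1 and 2, 5 and 6 were, beside 68.81% and 66.31%. The number of genes above 0 was thus near the share among coding genes. In each GSC-like replicate comr, can and rye were the 3 latest of the 9, and in both CySC-like replicates can and rye were the 2 latest. The bin of comr was the exception between the cell types, near the median in CySC-like and far below it in GSC-like.

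The bases around the starts of 3 of the genes on which these results turn show the positions that place each gene in its bin. Each stretch of 30 bases runs 5′ to 3′ on the strand of the gene, with 15 bases before the annotated start, and was read from Release 6 at the start in Ensembl release 115. The stretches for tomb, can and mia are at 2L:5536744-5536773, 3L:10267097-10267126 and 3R:5551154-5551183, all on the minus strand. Capitals mark TCAGT, a form of the initiator element of core promoters.

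tomb: gttggagctgtcaTCAGTtcgtttctggaa

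can: aaatattcacttattgcactagggctgatt

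mia: cagtagtcgaaaggagctcgacctgggaag

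The stretches were searched for TCAGT or TCATT, which can overlap only by a shared T at their ends. A match on the gene's strand was found in the stretches of tomb and nht, 2 of the 8 genes searched. The match of tomb spans the annotated start, whereas that of nht lies at the upstream end of its stretch, before the start. The start of comr was not analysed here. Of all coding starts 20.05% held TCAGT or TCATT in that stretch on the gene's strand. On the opposite strand none of the 8 did, and 4.66% of coding starts did. A match is a description of the letters only.

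The tMAC genes were described first. Aly, a relative of the MuvB protein Mip130, is encoded at 3L:3024129-3026521 on the minus strand (FBgn0004372). Its start bin had log2(E/L) of 0.65 and 1.20 in GSC-like nuclei, against 0.0022 and 0.16 in CySC-like nuclei. The GSC-like values both lay above the CySC-like ones, with means of 0.93 ± 0.39 and 0.081 ± 0.11 (SD, n = 2 each). The difference of 0.84 ± 0.60 (SE) did not pass the test across all bins, limma with Benjamini-Hochberg adjustment (adjusted p = 0.757). Here and below, SE and p rest largely on a spread that limma shares over bins, not on the SD of the gene itself. The SE was 0.60 for topi too, whose GSC-like SD was 0.98. Among all bins of a replicate aly ranked at percentile 83.1 and 79.0 in GSC-like nuclei and 50.1 and 60.6 in CySC-like nuclei, a measure that the scaling of the libraries does not move. Among coding starts its percentiles were 73.63 and 60.85 in GSC-like nuclei and 31.34 and 47.26 in CySC-like nuclei.

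The gene comr, cookie monster, encodes a tMAC subunit that enters the nucleus together with Aly and lies at 2R:21864870-21866859 on the minus strand (FBgn0034667). The log2(E/L) of its start bin was -1.51 and -2.06 in GSC-like nuclei, against 0.45 and -0.29 in CySC-like nuclei. It was the latest of the 9 genes in each GSC-like replicate. The means were -1.78 ± 0.39 in GSC-like nuclei and 0.081 ± 0.53 in CySC-like nuclei (SD, n = 2 each). In percentiles of all bins comr stood at 2.76 and 8.03 in GSC-like nuclei and at 63.7 and 35.2 in CySC-like. The difference of -1.87 ± 0.65 (SE) was the largest of the 9 in size, and 0.895% of bins and 0.551% of coding starts had a lower one. It did not pass the test over all bins (adjusted p = 0.272, unadjusted p = 0.00421), and 212 bins had a lower p.

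Topi is a zinc-finger subunit that can bind DNA and is encoded at 3R:9775121-9777943 on the plus strand (FBgn0037751). Its start bin had log2(E/L) of 0.33 and 1.72 in GSC-like nuclei, against 0.61 and 0.11 in CySC-like nuclei. The groups overlapped, and GSC-like replicates 1 and 2 lay farther apart for topi than for any other of the 9 genes. The difference was 0.66 ± 0.60 (SE, adjusted p = 0.840).

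Tombola, with a cysteine-rich CXC domain like that of Mip120, is encoded at 2L:5535861-5536758 on the minus strand (FBgn0031715), where Cap-D3 on the other strand overlaps it. The start bin of tomb had log2(E/L) of 0.68 and 0.87 in GSC-like nuclei, against -0.45 and 0.16 in CySC-like nuclei. The GSC-like values both lay above the CySC-like ones. The means were 0.77 ± 0.13 and -0.14 ± 0.43 (SD, n = 2 each), and the difference of 0.91 ± 0.63 (SE) did not pass (adjusted p = 0.744).

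Among the tTAFs, Cannonball, the testis counterpart of Taf5, is encoded by can at 3L:10263909-10267111 on the minus strand (FBgn0011569). The log2(E/L) of its start bin was -0.82 and -1.96 in GSC-like nuclei, against -1.96 and -1.36 in CySC-like nuclei. It was late in every replicate and the groups overlapped. The means were -1.39 ± 0.81 in GSC-like nuclei and -1.66 ± 0.43 in CySC-like nuclei (SD, n = 2 each), with a difference of 0.27 ± 0.68 (SE, adjusted p = 0.963).

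The counterpart of Taf12, rye (ryan express), is called Taf12L in the annotation and lies at 2L:4700835-4701485 on the minus strand (FBgn0031623), where dcma on the other strand overlaps it. Its start bin had log2(E/L) of -0.72 and -2.01 in GSC-like nuclei, against -2.02 and -2.45 in CySC-like nuclei. It was late in every replicate, and stood at percentile 0.567 of all bins in CySC-like replicate 2. The groups did not overlap, but GSC-like replicate 2 and CySC-like replicate 1 were nearly equal. The difference of 0.87 ± 0.68 (SE) did not pass (adjusted p = 0.787), and it ran from 0.229 to 1.51 when each replicate was left out in turn.

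Mia (meiosis I arrest), the counterpart of Taf6, is encoded at 3R:5548115-5551168 on the minus strand (FBgn0014342). The log2(E/L) of its start bin was 0.42 and 1.76 in GSC-like nuclei, against 0.91 and 0.52 in CySC-like nuclei. All 4 values were early, at percentiles of bins from 72.8 to 94.7, and the groups overlapped. The difference was 0.37 ± 0.58 (SE, adjusted p = 0.925).

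The remaining tTAF genes had values close to or above the median bin. Spermatocyte arrest (sa), the counterpart of Taf8, lies at 3L:21405425-21406738 on the minus strand (FBgn0002842), where rgn on the other strand overlaps it. Its start bin had log2(E/L) of 0.0057 and 1.06 in GSC-like nuclei, against 1.68 and 0.41 in CySC-like nuclei. The gene nht (no hitter), the counterpart of Taf4, lies at 2L:15317954-15318901 on the minus strand (FBgn0041103). Its values were -0.20 and 0.85 in GSC-like nuclei, against -0.038 and 0.16 in CySC-like nuclei. Among coding starts nht ranked at percentiles 22.87 and 47.39 in GSC-like nuclei and 30.16 and 47.14 in CySC-like nuclei. For sa these percentiles were 33.46 and 55.48 in GSC-like nuclei and 96.48 and 72.3 in CySC-like nuclei. For both genes the groups overlapped, and the differences were -0.51 ± 0.57 for sa and 0.26 ± 0.60 for nht (SE, adjusted p = 0.883 and 0.957).

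**Figure D1:**
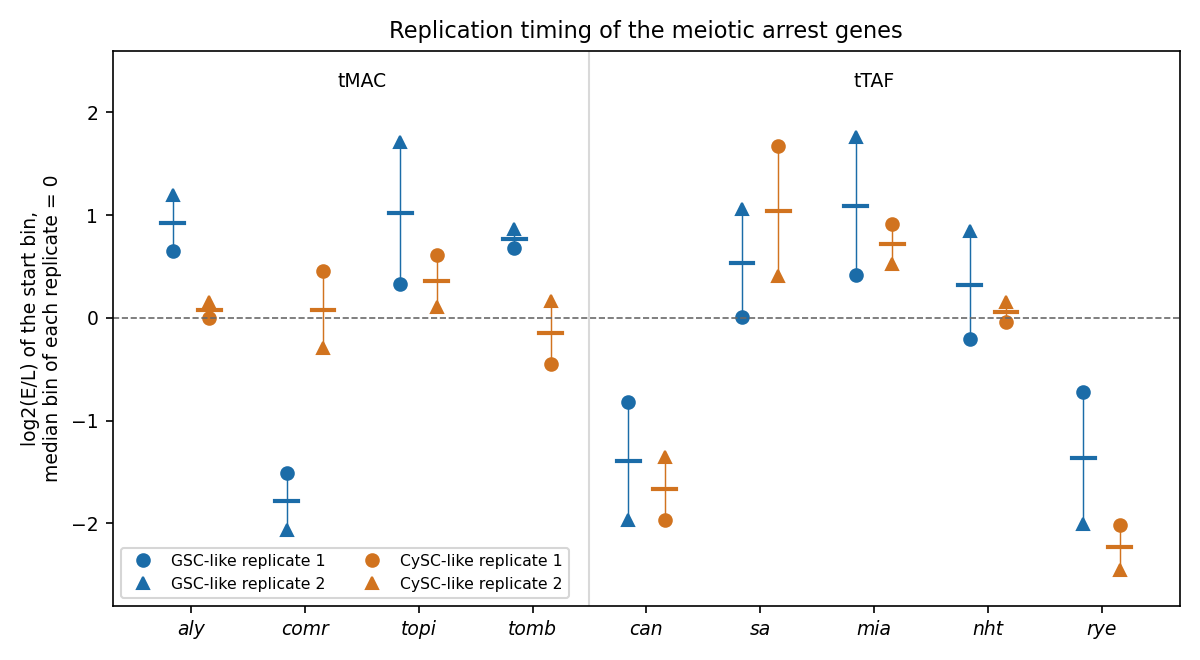
Points give log2(E/L) of the start bin of each gene in each replicate (y axis, log2 scale, median bin of the replicate at 0), with GSC-like in blue left of CySC-like in orange, bars at the mean and thin lines over the range. The bins of can and rye are below 0 in all 4 replicates, and comr is at -1.51 and -2.06 in GSC-like against 0.45 and -0.29 in CySC-like.

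None of the 9 genes passed the test of GSC-like against CySC-like in its start bin, where 0.0582% of all bins passed, 0.0218% with GSC-like earlier and 0.0364% with GSC-like later. At an unadjusted p under 0.05 there was 1 of 9, comr, against 9.04% of all bins. Non-overlapping replicates were found in 4 genes, with GSC-like earlier in aly, tomb and rye and later in comr. Of all bins 22.2% had the GSC-like pair wholly above the CySC-like pair and 17.3% had it wholly below, and of all coding starts 25.1% and 10.3%. The median difference of the 9 genes was 0.374 with 7 above 0, beside 0.251 over all coding starts, of which 66.88% were above 0. In their differences the 9 genes were thus near coding genes as a whole. The median log2(E/L) of the 9 genes was 0.0057 and 0.87 in GSC-like nuclei, against 0.0022 and 0.16 in CySC-like nuclei. That of all coding starts was 0.27 and 0.92 in GSC-like nuclei, against 0.54 and 0.19 in CySC-like nuclei, above that of the 9 genes in each of the 4 replicates.

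Within each cell type, E was compared with L against the median bin, with E and L paired by replicate. In GSC-like 4 of the 9 genes passed, where 27.4% of all bins did. At an unadjusted p under 0.05 there were 6 of 9, against 42.1% of bins. The bins of comr (-1.78 ± 0.46, SE, adjusted p = 0.00204), can (-1.39 ± 0.48, adjusted p = 0.0222) and rye (-1.36 ± 0.48, adjusted p = 0.0237) were later, as were 18.1% of bins and 6.03% of coding starts. The bin of mia was earlier (1.09 ± 0.41, adjusted p = 0.0342), as were 9.33% of bins and 17.9% of coding starts. Next to the threshold were topi (1.02, adjusted p = 0.0572) and aly (0.93, adjusted p = 0.0835).

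In CySC-like 2 of the 9 genes passed, rye (-2.23 ± 0.48, SE, adjusted p = 0.000286) and can (-1.66 ± 0.48, adjusted p = 0.0081), both later. Of all bins 15.7% passed in CySC-like, 14.4% as later and 1.23% as earlier, and of coding starts 5.74% as later and 1.89% as earlier. At an unadjusted p under 0.05 there were 3 of 9, against 30.3% of bins. The bin of comr passed in GSC-like but not in CySC-like (adjusted p = 0.913), while its difference between the cell types missed the threshold, as given above. Without the pairing of E and L none of these calls was made (adjusted p of 0.254 for comr, and of 0.231 for rye in CySC-like). Without GSC-like replicate 2 none of the 9 passed in GSC-like, without GSC-like replicate 1 comr, topi, can, mia and rye did, and without CySC-like replicate 1 or CySC-like replicate 2 only comr did. None passed in CySC-like without CySC-like replicate 1 or without CySC-like replicate 2, whereas can, sa and rye did without either GSC-like replicate.

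The bodies of the genes, each read from 4 to 7 windows, gave a similar order, with exceptions in each replicate. In GSC-like replicate 1 the body of can (-0.91) was later than that of comr (-0.82), and that of nht (-0.42) later than that of rye (-0.23). In GSC-like replicate 2 the body of tomb (0.75) was later than that of nht (1.01). In CySC-like replicate 1 the body of can (-2.24) was later than that of rye (-2.10). In CySC-like replicate 2 the body of aly (-0.034) was later than that of topi (0.059). The body of comr had log2(E/L) of -0.82 and -2.08 in GSC-like nuclei, against 0.67 and -0.40 in CySC-like nuclei, a difference of -1.58 ± 0.70 (SE, adjusted p = 0.652). Later bodies in every replicate were again those of can and rye. The body of can had -0.91 and -1.90 in GSC-like nuclei, against -2.24 and -1.40 in CySC-like nuclei. The body of rye had -0.23 and -1.99 in GSC-like nuclei, against -2.10 and -2.26 in CySC-like nuclei.

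At the early end the body of mia, most of which lies in the bin next to its start bin, had 0.97 and 2.14 in GSC-like nuclei, against 0.83 and 0.75 in CySC-like nuclei. Its replicates did not overlap over the body, although they did in the start bin. The body of topi had 0.60 and 1.81 in GSC-like nuclei, against 0.47 and 0.059 in CySC-like nuclei, and also did not overlap. In all, GSC-like was above CySC-like in the bodies of aly, topi, tomb, mia and rye and below it in that of comr, 6 of 9, where 26.7% of coding bodies had the replicates apart upwards and 10.0% downwards. None of the 9 bodies passed the test between the cell types (adjusted p from 0.652 to 0.995), nor did any of the 13968 bodies, 0.0% of which were called, against 6.57% at an unadjusted p under 0.05. The body of comr was the 1 of the 9 at that unadjusted level.

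The ratio was split into its libraries by comparing the level of each bin in E and in L, as a multiple of the library's median bin. Levels and ratios were centred on separate medians, so the differences in E and L do not add up exactly to that in the ratio. The E level of comr was 0.449 and 0.253 in GSC-like nuclei, against 1.68 and 0.872 in CySC-like nuclei. In deposited signal these are 2.85 and 1.07 RPKM, against 10.3 and 5.74 RPKM. The L level of comr was 1.26 and 1.34 in GSC-like nuclei, against 1.16 and 1.02 in CySC-like nuclei. The groups did not overlap in either fraction, and the log2 difference was -1.85 ± 0.70 in E (SE, adjusted p = 0.597) and 0.25 ± 0.26 in L (adjusted p = 0.628), so most of the difference in the ratio of comr lay in E.

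For tomb the difference was larger in L than in E, with L levels of 0.672 and 0.735 in GSC-like nuclei, against 1.29 and 0.919 in CySC-like nuclei. In E its levels were 1.09 and 1.05 in GSC-like nuclei, against 0.998 and 1.07 in CySC-like nuclei. The log2 difference of tomb in L was -0.63 ± 0.24 (SE, adjusted p = 0.486). None of the 9 genes passed in E or in L. Of all bins 0.0436% were called in E and 0.0% in L, with 7.31% and 10.2% at an unadjusted p under 0.05. At that unadjusted level comr was the 1 gene of the 9 in E and tomb the 1 in L.

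The 4 fractions showed where in S phase a bin peaked, in the 3 replicates that have them all. The libraries labelled EM and ML of CySC-like replicate 2 stood apart from those of GSC-like. Over 13746 bins the library labelled ML there correlated with E at r = 0.844 and with L at 0.326, and the library labelled EM with E at 0.502 and with L at 0.865. In GSC-like replicates 1 and 2 the ML library correlated with E at 0.255 and -0.268 and with L at 0.753 and 0.548. The EM library of these replicates correlated with E at 0.573 and 0.571 and with L at 0.57 and 0.713. An EM library nearer to L than to E was thus also found in GSC-like replicate 2. Whether the EM and ML labels of CySC-like replicate 2 are exchanged was not tested, so its values are given as labelled and the reading with exchanged labels beside them. The bin of comr had levels of 0.449, 1.06, 1.42 and 1.26 times the median bin in E, EM, ML and L of GSC-like replicate 1, and of 0.253, 0.514, 1.71 and 1.34 in GSC-like replicate 2. Its levels in CySC-like replicate 2 were 0.872, 1.14, 1.53 and 1.02. The level of comr was thus highest in the library labelled ML in all 3 replicates, and with exchanged labels it would peak in EM in CySC-like. The cell types were farthest apart in E.

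The bin of can had 0.517, 0.968, 1.31 and 0.899 in E, EM, ML and L of GSC-like replicate 1, and 0.237, 0.509, 2.20 and 1.18 in GSC-like replicate 2. Its levels in CySC-like replicate 2 were 0.733, 0.996, 0.972 and 1.80. It peaked in ML of the GSC-like replicates and in L of CySC-like replicate 2, as rye did too. The bin of rye had 0.603, 1.10, 1.20 and 0.981 in GSC-like replicate 1, 0.272, 0.607, 2.05 and 1.39 in GSC-like replicate 2, and 0.478, 1.58, 0.339 and 2.51 in CySC-like replicate 2. In CySC-like replicate 2 the level of rye as labelled was thus lowest in ML and above E in EM, and with exchanged labels it would be low in E and EM and high in ML and L.

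Early genes peaked in E in GSC-like. The bin of mia had 1.17, 0.659, 0.751 and 0.860 in E, EM, ML and L of GSC-like replicate 1, and 2.57, 0.696, 0.578 and 0.965 in GSC-like replicate 2. Its levels in CySC-like replicate 2 were 1.36, 0.862, 1.45 and 0.907, with E and ML high and EM and L low as labelled, or E and EM high with exchanged labels. The bin of aly had 1.54, 0.847, 0.604 and 0.969 in GSC-like replicate 1, 1.36, 0.983, 0.524 and 0.753 in GSC-like replicate 2, and 1.11, 0.846, 1.05 and 0.956 in CySC-like replicate 2. The profile of aly was flatter in CySC-like, where no fraction was far from the median bin.

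Counted over the 9 genes, E was the highest fraction of 5 in GSC-like replicate 1 and of 6 in GSC-like replicate 2, where it was the highest of 35.48% and 33.38% of all bins. The 5 genes were aly, topi, tomb, sa and mia, and nht joined them in GSC-like replicate 2 after peaking in EM in GSC-like replicate 1. For sa in GSC-like replicate 1, E and L were nearly equal, at 1.49 and 1.46 times the median bin. ML was the highest of comr, can and rye in both GSC-like replicates, 3 of 9, where it was the highest of 25.54% and 28.59% of all bins. For CySC-like replicate 2, E was the highest of aly and sa, ML of comr, topi, tomb, mia and nht, and L of can and rye, and over all bins the shares were 21.90%, 33.83% and 27.56%. With exchanged labels the 5 genes and the 33.83% of bins would count under EM. EM and ML of CySC-like have 1 library each, so these shapes have no replicate and no test.

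**Figure D2:**
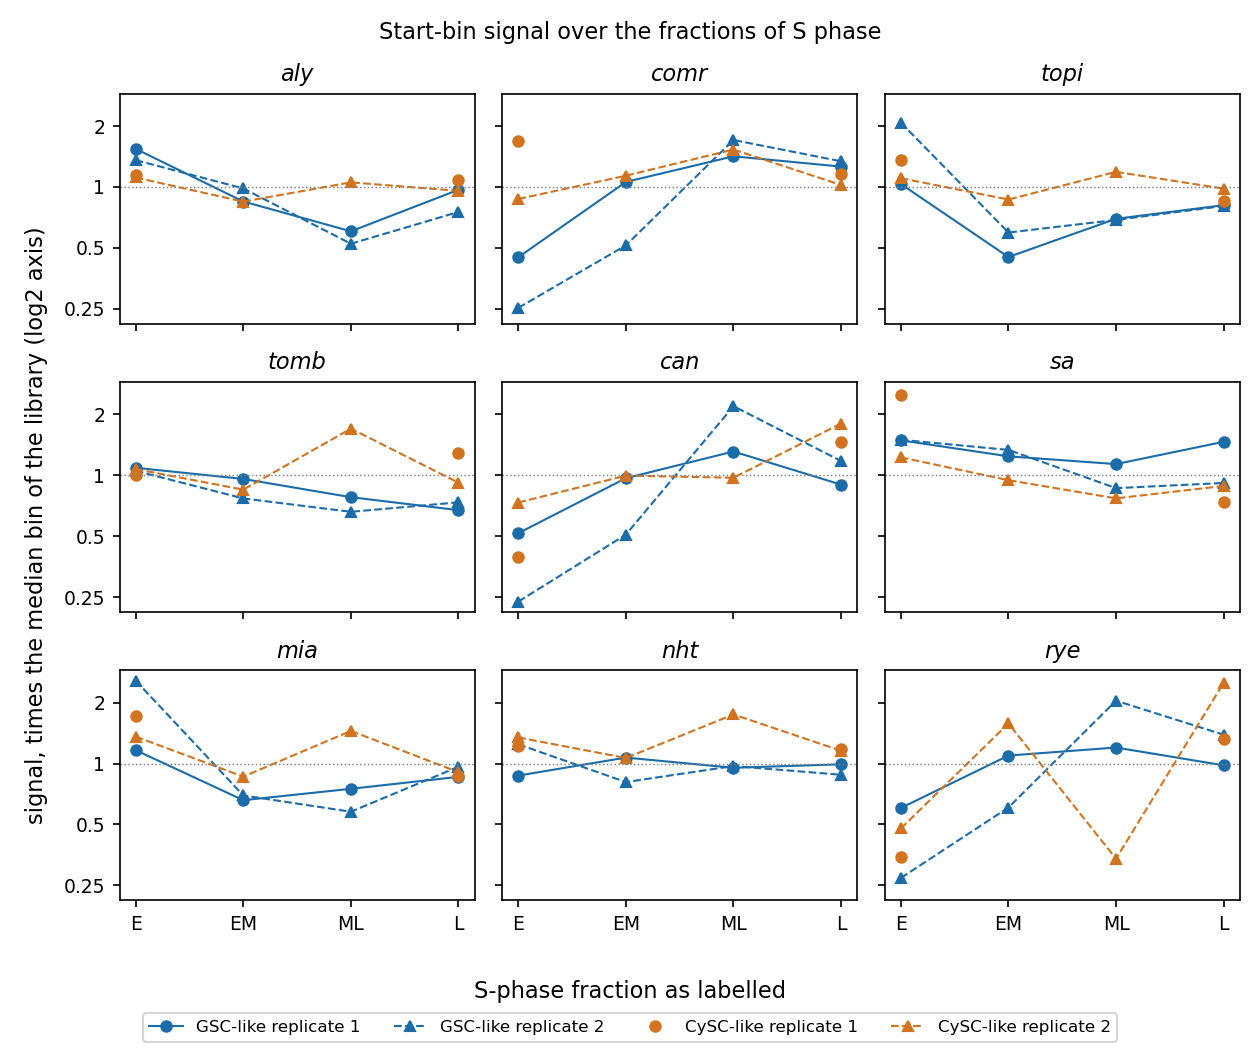
Each panel plots the level of a start bin, as a multiple of the library's median bin on a log2 axis, over the fractions E, EM, ML and L, with GSC-like in blue and CySC-like in orange and circles and triangles for replicates 1 and 2. CySC-like replicate 1 has E and L only. In GSC-like comr, can and rye are lowest in E and highest in ML, while aly, topi, tomb, sa and mia are highest in E. For sa in GSC-like replicate 1, E and L are nearly equal.

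The bins around each gene were read, to see whether the value at the start was that of a wider stretch. Means and slopes were taken over the start bin and 100 kb to either side, and runs of bins were followed to their ends. For can every bin from 10000001 to 10320000 on 3L, 320 kb, was later than the median bin in all 4 replicates. For rye the same held from 4540001 to 4770000 on 2L, 230 kb. The late values of can and rye were thus shared by their surroundings. The mean over the start bin and its flanks was -0.97 and -1.78 in GSC-like nuclei, against -1.15 and -1.22 in CySC-like nuclei, for can. For rye it was -0.87 and -1.66 in GSC-like nuclei, against -1.99 and -1.88 in CySC-like nuclei.

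Early stretches were shorter. All 4 replicates were earlier than the median bin over 100 kb around topi, 60 kb around mia, 30 kb around sa and 20 kb around aly. Of all bins 25.6% were earlier in all 4 replicates and 28.5% later, and of coding starts 40.4% and 10.2%. Of the 9 genes 4 were on the early side throughout (aly, topi, sa and mia), 2 on the late side (can and rye) and 3 on both (comr, tomb and nht).

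The gene comr lies on a slope of timing. From 100 kb below its start bin to 100 kb above it on 2R, log2(E/L) went in GSC-like from 0.25 and 1.42 at the low end, through -1.51 and -2.06 at the gene, to -0.93 and -1.99 at the high end. In CySC-like it went from 1.20 and 0.55, through 0.45 and -0.29, to -1.79 and -1.35. Both cell types were thus earlier at one end and later at the other. In the 70 kb from 21850001 to 21920000, which hold comr, the GSC-like pair lay wholly below the CySC-like pair in every bin. At 60 kb above the start bin that order ended, with -0.88 and -2.37 in GSC-like nuclei, against -1.43 and -1.20 in CySC-like nuclei.

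Similar runs of bins with GSC-like above CySC-like held tomb over 100 kb (5530001 to 5630000 on 2L), rye over 70 kb (4670001 to 4740000 on 2L) and aly over 20 kb (3010001 to 3030000 on 3L). In these runs, as in that of comr, the order of the cell types was a property of more than the single bin of the gene. Neighbouring bins are not independent of each other, since timing changes slowly along a chromosome. Adjacent bins also share reads, because the 3 kb windows at steps of 1 kb reach over the edges of bins.

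**Figure D3:**
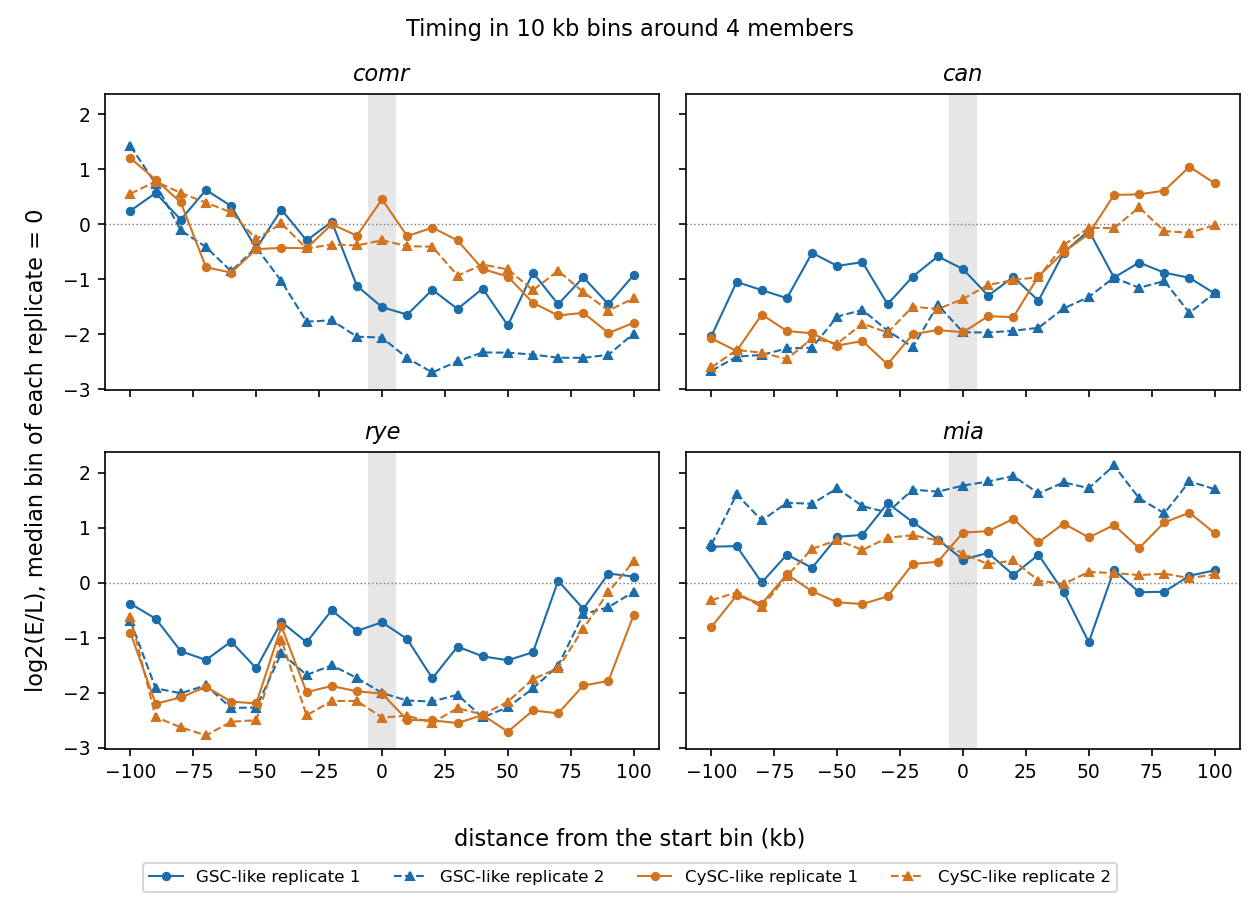
Log2(E/L) in 10 kb bins (y axis, median bin of each replicate at 0) is plotted against the distance from the start bin in kb for comr, can, rye and mia, with GSC-like in blue, CySC-like in orange, and the start bin shaded. GSC-like is below CySC-like from 10 kb before to 50 kb after the bin of comr, and all lines are below 0 within 50 kb of the bins of can and rye.

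The start bins had no base composition or gene density in common. The GC content was 40.5% for comr, 40.5% for can and 42.9% for rye, at percentiles 32.7, 33.0 and 60.3 of all bins. It was 48.6% for topi and 48.9% for tomb, at percentiles 95.9 and 96.6. The bins of aly, can, sa, nht and rye hold no other coding start than their own, that of comr holds 2, those of tomb and mia 3 and that of topi 4. Of the late genes can and rye thus stand alone in their bins, and so do aly, sa and nht, which were not late.

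The list of other subunits and partners of tMAC held mip40, wuc, achi, vis and Caf1-55, 5 genes in 4 bins. In GSC-like 3 of 5 passed as earlier than the median bin and none as later, where 9.33% of bins and 17.9% of coding starts passed as earlier. These were achi and vis, neighbouring homeodomain genes in a shared bin (1.20 ± 0.43, SE, adjusted p = 0.0257), and Caf1-55, a histone-binding protein found in many chromatin complexes (1.25 ± 0.43, adjusted p = 0.0222). None passed in CySC-like. Between the cell types none passed either, and the median difference was 0.551.

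The ubiquitous counterparts mip130, mip120, Taf4, Taf5, Taf6, Taf8 and Taf12 serve most cells in the place of the testis proteins. In GSC-like 3 of 7 passed as earlier, Taf5 (1.64 ± 0.42, SE, adjusted p = 0.00186), Taf12 (1.20 ± 0.41, adjusted p = 0.0209) and Taf6 (1.14 ± 0.43, adjusted p = 0.0356), and none as later, beside the 17.9% of coding starts that passed as earlier. In CySC-like none passed. Without the pairing of E and L no bin passed as earlier in GSC-like (0 of 13746), so the calls of Taf5, Taf12 and Taf6 were not made. The start bin of Taf5 had log2(E/L) of 1.75 and 1.53 in GSC-like nuclei, against 0.62 and 0.24 in CySC-like nuclei. Its testis counterpart can was late in all 4 replicates, with values given above. The start bin of Taf12 had 0.92 and 1.48 in GSC-like nuclei, against 0.37 and 0.42 in CySC-like nuclei, while its testis counterpart rye was late. The other TAF pairs were alike in sign of the mean: Taf6 and mia, Taf8 and sa, and Taf4 and nht were all above 0 in both cell types, although the mean of nht in CySC-like was -0.048 when ratios were centred on autosomal arms. Of mip120, the relative of tomb, the mean was 1.10 in GSC-like nuclei and 0.19 in CySC-like nuclei, where that of tomb was -0.14. Between the cell types none of the 7 passed, and the lowest adjusted p was 0.526, for Taf5 (1.21 ± 0.59).

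Genes that need tMAC or the tTAFs for their expression in spermatocytes made the third list, of 15 genes in 10 bins. In GSC-like 2 passed as earlier, janB and ocn, which share a bin (1.29 ± 0.43, SE, adjusted p = 0.0170). The 4 that passed as later were Mst84Da, Mst84Db, Mst84Dc and Mst84Dd, a cluster of sperm-tail genes in a single bin (-1.82 ± 0.48, adjusted p = 0.00278). Of coding starts 17.9% passed as earlier and 6.03% as later. The cluster had log2(E/L) of -1.33 and -2.31 in GSC-like nuclei, against -1.81 and -1.57 in CySC-like nuclei. It passed as later in CySC-like too (-1.69 ± 0.48, adjusted p = 0.00728), where no other gene of the list did. The median difference of the list was 0.111, none passed between the cell types, and the lowest adjusted p was 0.754, for CycB (0.82 ± 0.58), the mitotic and meiotic cyclin.

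**Figure D4:**
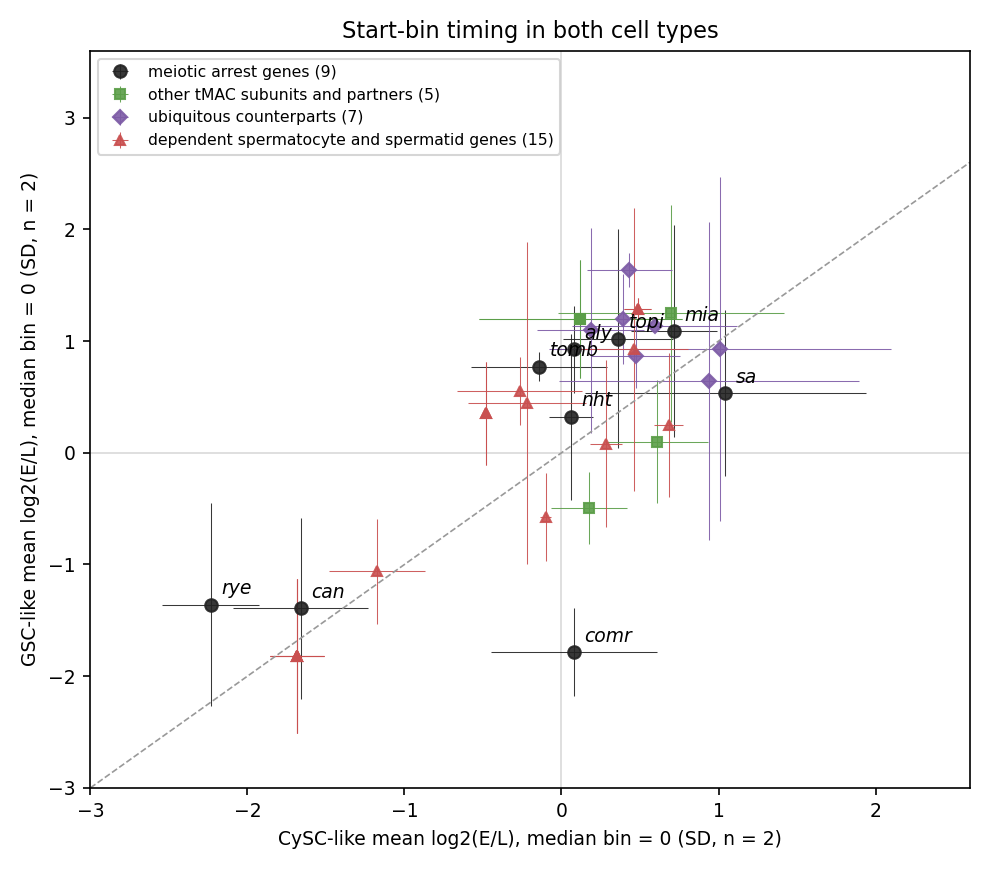
Mean log2(E/L) of start bins in GSC-like (y axis) is plotted against that in CySC-like (x axis), with the median bin at 0, crosses of 1 SD over 2 replicates, and colours for the 9 meiotic arrest genes and the 3 other lists. The gene comr lies far below the dashed line of equality, at -1.78 and 0.081, and can and rye lie at the late end of both axes with the bin of the Mst84D cluster.

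Across all 14 libraries the median profile of the 9 start bins was most like the bin at 12430001 on 3R, with r = 0.892 among 13738 genes more than 100 kb away from any of the 9. That bin holds the starts of Aos1, Srlp and CG17207. The 14 libraries differ in depth and share replicates, so this likeness is a description. The 9 genes did not share 1 profile, with r against their own median from 0.774 for mia and 0.758 for nht to -0.313 for can and -0.502 for rye.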

How the data were processed

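The authors deposited a table with a column for each of 14 libraries in windows of 3 kb at steps of 1 kb. In 100% of whole windows the values were multiples of a single step (tolerance 0.01 reads), as RPKM would be. Counts scaled in another way would be multiples of a step too, so the unit was taken as RPKM and not tested. Read totals and counting errors rest on that reading. Per the submitters' processing notes Bowtie2 2.4.5 and dm6 were used. The treatment of duplicates and repeats is not given in the sources used here. The deposited RPKM values are not raw counts, so limma was used rather than a count test.

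The lengths of 7 chromosome sequences equalled Release 6. Windows were averaged into 10 kb bins by their centres and libraries rescaled to an equal mean. After adding 0.1 RPKM and taking log2, which understates changes at low signal, log2(E/L) per replicate was centred on its median bin. A bin listed at 0 in at least 4 of the 8 libraries of these fractions was dropped (13746 of 13758 kept). Means over windows overlapping a gene were treated alike. The fits used limma 3.58.1 in R 4.3.3 (lmFit, eBayes with trend), 2 replicates against 2, with Benjamini-Hochberg adjustment over all bins or genes and a threshold of 0.05. Plots used matplotlib 3.10.9, and sums pandas 2.3.3 with numpy 2.4.6 under Python 3.11.15.

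E and L are paired because, per the series' design text, a biological replicate was divided by the sorter into its 4 fractions. Their deviations correlated with r = 0.517 in GSC-like and -0.0632 in CySC-like. Tested on simulated data for the start-bin comparison of the cell types (13746 bins, spread 0.612), the fit recovered 46% of 100 bins changed by 2 and 100% of 100 changed by 4 on the log2 scale, with 8 false calls.

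The 9 genes and all lists were chosen with earlier results of these data known. All 9 were named whatever their values. In the other lists the genes past the threshold were named, or, where none passed, the gene with the lowest p between the cell types. Genes were matched by symbol in Ensembl release 115, and rye by its synonym for Taf12L. Alternatives covered pseudocount, filter, trend, centring, quantile normalization, bin size, replicate blocks and leaving out each replicate.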

Additional observations from a re-analysis of the deposited data

How the results depend on the processing

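The cell types had 2 replicates each, and GSC-like replicate 2 was of low depth. On simulated data of this size 46% of shifts of 2 on the log2 scale were recovered, and smaller shifts were not simulated. The simulated replicates had a common spread, which the real ones did not. The simulation also held 100 bins changed by 4, which ease the adjusted threshold for the rest. The share recovered in the real data may thus be lower. The difference of comr between the cell types ran from -2.24 to -1.49 over all alternatives and passed under none of them (adjusted p from 0.0545 to 1). None of the 9 genes passed between the cell types in start bins, bodies or L levels under any alternative run, and in E levels only comr passed, in the fit without GSC-like replicate 1. The cause of the changes below was not tested.

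Fits with the replicate number as a replicate block across the cell types called 0% of start bins between them and 0.0145% of bins in E, against 0.0582% and 0.0436% without it. The numbers shared by the cell types do not pair them in the design, and deviations of same-numbered replicates correlated with r = -0.248. A block with the CySC-like numbers swapped, chosen after seeing the data, called 1.20% of start bins, 1.23% of bodies and 0.0218% of bins in E. It gave the adjusted p of 0.0545 for comr. Treating E and L as unpaired, with no replicate block, called 0 of the 9 genes and 0.0727% of bins in GSC-like, and 0 of the 9 and 0.00727% of bins in CySC-like. In GSC-like 0 of 13746 bins were called as earlier there, so the earlier calls in the other lists were not made either.

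The share of start bins called between the cell types was 0.131% with a pseudocount of 0.5 RPKM, 0.0145% with centring on autosomal arms, 0.102% without centring, 0.472% in bins of 50 kb, and 0% with no variance trend or with quantile normalization. For bodies it was 0.0931% with centring on arms. In E it was 0.0145% with no variance trend, 0.0218% without centring and 0.0726% in bins of 50 kb, and in L 0.00727% without centring. Quantile normalization called 4 of the 9 genes in CySC-like (can, sa, mia and rye) and 35.1% of bins. Without centring, GSC-like calls were made for aly, comr, topi and mia and not for can (adjusted p = 0.0522) or rye (adjusted p = 0.055). Centring on arms lost that of mia (adjusted p = 0.0745), and bins of 5 kb lost that of rye (adjusted p = 0.0689).

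Some signs turned. The difference of nht was -0.0369 with quantile normalization and -0.0358 in bins of 50 kb. In CySC-like, centring on arms gave -0.0266 for aly, -0.0265 for comr and -0.0479 for nht, quantile normalization gave -0.0508 and bins of 50 kb -0.293 for comr, and bins of 5 kb gave 0.0467 for tomb. Without centring the log2 difference of comr in L, GSC-like minus CySC-like, was -0.307.

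Leaving out each replicate in turn, where a lone replicate is assumed to vary like the other group, called 0% to 1.67% of start bins and 0% to 0.243% of bodies between the cell types, 0 to 1 of the 9 genes and 0% to 9.10% of bins in E, and 0% to 24.5% of bins in L. It called 0 to 5 of the 9 and 0.400% to 43.2% of bins in GSC-like, and 0 to 3 of the 9 and 0% to 25.5% of bins in CySC-like. The difference ran from -0.0305 to 1.36 for topi, -0.302 to 0.844 for can, -1.14 to 0.121 for sa, -0.298 to 1.05 for mia, -0.264 to 0.788 for nht and 0.229 to 1.51 for rye. In GSC-like nht ran from -0.204 to 0.848. In CySC-like comr ran from -0.292 to 0.454, tomb from -0.448 to 0.163 and nht from -0.0381 to 0.157.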
